A study of Mus musculus with 10 samples.

Results

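Immediate early genes are transcribed within minutes of synaptic or hormonal stimulation, without new protein synthesis, and 10 of them were followed here: Fos, Fosb, Junb, Egr1, Egr2, Egr3, Npas4, Nr4a1, Arc and Dusp1. They were chosen by gene symbol from the 32531 gene rows of the deposited count tables, and all 10 were found. The libraries came from the medial habenula of adult mice of the BAC transgenic line Chat-TRAP DW167. In this line the promoter of the choline acetyltransferase gene drives an EGFP-tagged ribosomal protein, Rpl10a, so that RNA on the ribosomes of cholinergic neurons can be captured through the EGFP tag (the TRAP method). The left medial habenula gave 5 libraries and the right medial habenula 5, all of them pull-downs that carry the transgene, and the labels name no treatment. Whether each library stands for a different animal is not said in the labels, so the p-values measure only the spread between these libraries, which may be technical.

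In neurons, calcium entry and kinase cascades activate the transcription factors CREB and SRF, which wait at the promoters of immediate early genes and switch them on. Most of the products are themselves transcription factors (Fos, Fosb and Junb of the AP-1 family, the zinc-finger proteins Egr1, Egr2 and Egr3, the activity-dependent factor Npas4 and the orphan nuclear receptor Nr4a1), while Arc acts at synapses and Dusp1 removes the phosphates that activate MAP kinases. These genes are widely used as markers of recently active neurons.

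The stretches upstream of 4 members are shown because they differ in how far their level moved between the libraries described next: Fos and Dusp1 moved by a wide margin, Nr4a1 and Junb by a narrow one. Each stretch covers the bases from 250 to 51 before the RefSeq transcription start in the build GRCm38.p6, printed 5′ to 3′ on the gene's strand. Capitals mark the half-site of the cyclic AMP response element, TGACG, or its reverse complement CGTCA.
Fos, chr12:85473640-85473839, plus strand: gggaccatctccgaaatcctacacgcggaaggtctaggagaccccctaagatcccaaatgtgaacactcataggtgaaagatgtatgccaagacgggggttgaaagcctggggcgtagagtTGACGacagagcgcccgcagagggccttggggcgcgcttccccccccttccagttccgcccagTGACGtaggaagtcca
Dusp1, chr17:26508523-26508722, minus strand: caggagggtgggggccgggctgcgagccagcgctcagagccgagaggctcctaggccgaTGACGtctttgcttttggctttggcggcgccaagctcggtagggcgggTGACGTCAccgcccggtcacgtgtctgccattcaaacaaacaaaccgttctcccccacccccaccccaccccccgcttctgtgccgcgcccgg
Nr4a1, chr15:101266596-101266795, plus strand: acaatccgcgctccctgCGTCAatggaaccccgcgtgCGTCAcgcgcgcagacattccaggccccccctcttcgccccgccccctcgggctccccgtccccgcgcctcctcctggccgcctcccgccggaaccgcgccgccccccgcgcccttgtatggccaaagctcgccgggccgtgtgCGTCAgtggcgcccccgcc
Junb, chr8:84978799-84978998, minus strand: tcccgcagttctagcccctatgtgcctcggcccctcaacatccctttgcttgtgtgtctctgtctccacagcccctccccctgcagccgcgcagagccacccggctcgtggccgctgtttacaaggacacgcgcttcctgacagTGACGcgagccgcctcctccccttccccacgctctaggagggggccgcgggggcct
Fos held 2 half-sites and Nr4a1 held 3. Dusp1 held 3, of which 2 overlap within its single full palindrome TGACGTCA, and Junb held 1. RefSeq promoters matched 7 of the 10 members (not Egr1, Egr3 or Arc), and all 7 held at least 1 half-site in this window, Egr2 at 3 of its 5 listed starts. Of all 32851 windows of the same 200 bases, 12.7% held the half-site on either strand and 0.828% the full palindrome. These shares count windows, whereas the 7 members are counted per gene with any start sufficing. A match of letters describes the sequence and does not show that a factor binds there.

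The libraries fell into sets that stand apart, and this touches almost every member. Gene reads summed to between 42488448 and 67942836 per library. Levels are given as CPM, reads per 1000000 gene reads. The summed level of 49 glial and vascular markers was 917 to 3661 CPM in the 6 libraries numbered 2 to 4 and 239 to 261 CPM in the 4 numbered 1 and 5, with 44 of the 49 markers higher in each of those 6 than in each of those 4. The 11 markers of medial habenular neurons, among them Chat and Tac2, ran the other way and summed to 5193 to 9060 CPM in replicates 2 to 4 and to 10556 to 11030 CPM in replicates 1 and 5. All 11 were detected in each library. Markers of neighbouring neurons moved in part: 6 thalamic markers summed to 2325 to 2965 CPM in replicates 2 to 4 and 1946 to 2045 CPM in replicates 1 and 5. Of these 6 markers 3 were lower and 1 was higher in all libraries numbered 1 and 5. Tcf7l2, the most abundant of them, overlapped, at 1115 to 1287 CPM in replicates 2 to 4 and 1152 to 1273 CPM in replicates 1 and 5. Rora, the next most abundant, did not overlap, at 371 to 841 CPM in replicates 2 to 4 and 137 to 168 CPM in replicates 1 and 5. Of 4 lateral habenular markers 3 were higher in each of the 6 libraries than in each of the 4. The sum of all 4 markers was nevertheless 459 to 556 CPM in replicates 2 to 4 and 585 to 623 CPM in replicates 1 and 5. The remaining marker, Gpr151, is also among the 11 medial habenular markers. It stood at 206 to 388 CPM in replicates 2 to 4 and 536 to 577 CPM in replicates 1 and 5. The markers Aif1 of microglia and Cldn5 and Cdh5 of endothelium were each at 0 in at least 1 library. Replicates 1 and 5 of the same side resembled each other most. Over genes with 100 to 500 reads in a pair, their chi-square per degree of freedom was 2.14 for the left pair and 1.28 for the right pair, where counting noise alone gives 1, and every other pair of a side gave 6.71 to 49.7. The labels do not say whether these are repeat libraries of the same RNA, in which case each side has 4 independent samples and not 5. They were kept as separate libraries, and with replicates 1 and 5 of a side summed 0 members and 0 of all 16553 genes were called between the sides. Fold changes without them are given below. The part of these other cells in the levels of the members was not tested. In pull-downs of a tissue, fewer cells of a type and less RNA per cell cannot be told apart.

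The members spanned a wide range of abundance, with Egr1 highest. Scaled by exon length on top of CPM (reads per kilobase and per 1000000 gene reads, RPKM, with exon lengths from GENCODE M21), the median over the 10 libraries was 30.6 for Egr1, above that of 91.2% of the 14437 tested genes with a length. Arc had a median of 9.62 RPKM, Dusp1 9.44, Fos 8.60 and Nr4a1 2.94. The other 5 lay below 1 RPKM: Npas4 at 0.691, Junb at 0.483, Fosb at 0.364, Egr3 at 0.172 and Egr2 at 0.0303. The ranges over the 10 libraries overlapped between all neighbours in this order except Nr4a1 and Npas4. Within each library Egr1 was nevertheless above Arc in 10 of 10, but the margin differed between the sets of libraries. Egr1 stood at 30.5 to 40.9 RPKM in replicates 2 to 4 and at 9.00 to 11.3 RPKM in replicates 1 and 5. Arc stood at 9.10 to 12.4 RPKM in replicates 2 to 4 and at 8.33 to 9.36 RPKM in replicates 1 and 5. The lead of Egr1 was thus narrow in replicates 1 and 5. Arc was above Dusp1 in only 5 of 10, Dusp1 above Fos in 4 of 10 and Junb above Fosb in 5 of 10. These orders went largely with the sets of libraries. In each library numbered 1 and 5, Arc was above Dusp1, Fos above Dusp1 and Junb above Fosb. There Dusp1 stood at 1.63 to 2.10 RPKM and Fos at 2.21 to 2.62 RPKM. In replicates 2 to 4, Dusp1 was above Arc and Fosb above Junb except in right replicate 2. Dusp1 and Fos had no fixed order in those 6 libraries.

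**Figure D1:**
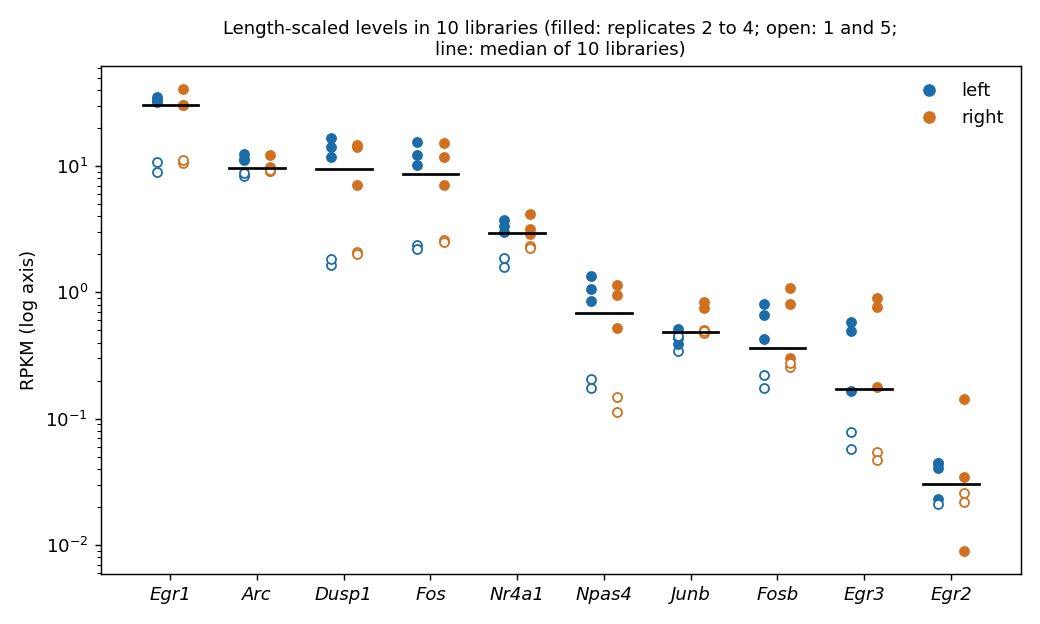
RPKM of the 10 genes (log axis) in 5 left and 5 right libraries, with filled points for replicates 2 to 4, open points for replicates 1 and 5, and a line at the median of the 10 libraries. Egr1 has the highest median at 30.6 RPKM and Egr2 the lowest at 0.0303 RPKM. Open points lie lowest for Egr1, Dusp1, Fos, Nr4a1, Npas4, Fosb and Egr3.

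The study compared the sides, and the question was whether neurons of the left and right medial habenula differ in their transcripts. None of the 9 tested genes differed between the sides beyond the spread of the libraries, and Egr2 had too few reads for the test. In the quasi-likelihood F test of edgeR, two-sided and with Benjamini-Hochberg adjustment over 16250 genes, 0 of the 9 members with enough reads passed an adjusted p of 0.05, and across all genes 0 passed (0%). Log2 fold changes below are left minus right. At an unadjusted p under 0.05 there were 0 of the 9 members, where 90 of all 16250 genes (0.554%) fell under it. DESeq2 also gave 0 members at the adjusted threshold and 1 of 10 at an unadjusted p under 0.05, which was Junb, where 273 of 23868 genes (1.14%) fell under it. The CPM ranges of the sides overlapped for all 10 members. They did not overlap for 35 of all tested genes, or 0.215%.

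Among the AP-1 genes, Fos (chromosome 12, 85473890 to 85477273, plus strand of GRCm38), the founding member of the family, stood at 5.56, 23.9, 29.0, 36.8 and 5.20 CPM in left replicates 1 to 5, against 6.17, 16.6, 35.9, 27.7 and 5.87 CPM in right replicates 1 to 5. On both sides replicates 1 and 5 were the lowest and the sides overlapped. The means were 20.1 ± 14.2 CPM in left libraries and 18.4 ± 13.3 CPM in right libraries (SD, n = 5 libraries each), with a log2 fold change of 0.08 (SE 0.68, 95% interval -1.43 to 1.60). Fosb (chromosome 7, 19302696 to 19310051, minus strand), a close relative of Fos, stood at 1.38, 2.65, 4.12, 5.07 and 1.10 CPM in left replicates 1 to 5, against 1.61, 1.90, 5.03, 6.75 and 1.71 CPM in right replicates 1 to 5. Right replicate 4 was the highest and the sides overlapped (log2 fold change -0.29, 95% interval -1.54 to 0.95).

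Junb (chromosome 8, 84974484 to 84978718, minus strand), a dimer partner of Fos proteins, had the narrowest spread of the AP-1 members and the smallest unadjusted p of the 9 tested. It stood at 0.792, 0.903, 1.18, 1.01 and 1.05 CPM in left replicates 1 to 5, against 1.09, 1.15, 1.73, 1.93 and 1.13 CPM in right replicates 1 to 5. The left library was lower in each of the 5 pairs with the same replicate number, a pattern that 347 of all tested genes (2.14%) shared and 2.66% showed the other way round, while the ranges of the sides overlapped. The means were 0.986 ± 0.148 CPM in left libraries and 1.41 ± 0.393 CPM in right libraries (SD, n = 5 libraries each). The log2 fold change was -0.54 (SE 0.26, 95% interval -1.12 to 0.04), with an unadjusted p of 0.0642 and an adjusted p of 0.99999 in edgeR. The gene had only 47 to 114 reads per library, and 173 of its exonic bases are shared with Prdx2 on the other strand. Whether the counting used strand is not stated in the labels, so reads of the pair could not be told apart there.

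The zinc-finger genes differed from one another in level and in spread. Egr1 (chromosome 18, 34859823 to 34864984, plus strand) stood at 40.3, 144.7, 156.6, 150.3 and 48.0 CPM in left replicates 1 to 5, against 47.8, 136.8, 183.5, 137.2 and 50.5 CPM in right replicates 1 to 5. Replicates 1 and 5 lay far below the others on both sides, and the sides overlapped. The means were 108 ± 58.5 CPM in left libraries and 111 ± 59.7 CPM in right libraries (SD, n = 5 libraries each), a log2 fold change of -0.07 (SE 0.50, 95% interval -1.19 to 1.05). Egr3 (chromosome 14, 70077203 to 70082614, plus strand) stood at 0.253, 0.729, 2.18, 2.59 and 0.343 CPM in left replicates 1 to 5, against 0.238, 0.783, 3.35, 3.95 and 0.206 CPM in right replicates 1 to 5. Its range over the 10 libraries, 19.2-fold, was the widest of the 9 tested members, and its interval between the sides was the widest too (log2 fold change -0.53, 95% interval -2.65 to 1.58). Egr2 (chromosome 10, 67535475 to 67542188, plus strand), known for its role in myelinating Schwann cells and hindbrain patterning, was close to the limit of detection and was not tested. It had 9, 5, 9, 9 and 4 reads in left replicates 1 to 5, against 5, 2, 32, 5 and 6 reads in right replicates 1 to 5. Right replicate 3, with 32 reads (exact 95% Poisson interval 21.9 to 45.2, counting error only), stood above all other libraries.

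Npas4 and Nr4a1 are factors of other families. Npas4 (chromosome 19, 4984355 to 4990316, minus strand), a neuronal factor induced by calcium entry that pairs with Arnt proteins, stood at 0.860, 3.56, 4.39, 5.57 and 0.722 CPM in left replicates 1 to 5, against 0.611, 2.15, 4.70, 3.95 and 0.471 CPM in right replicates 1 to 5. The left library was the higher in 4 of 5 same-number pairs and the sides overlapped. The log2 fold change was 0.31 (SE 0.76, 95% interval -1.38 to 2.0). Nr4a1 (chromosome 15, 101254269 to 101274795, plus strand) stood at 5.53, 13.1, 11.7, 10.5 and 6.60 CPM in left replicates 1 to 5, against 8.10, 10.1, 14.6, 11.1 and 7.84 CPM in right replicates 1 to 5. Its 4 libraries numbered 1 and 5 were again the lowest, but by less than those of Fos or Npas4, and the sides overlapped (log2 fold change -0.15, 95% interval -0.76 to 0.46).

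Arc and Dusp1 do not encode transcription factors. Arc (chromosome 15, 74669083 to 74672570, minus strand), whose protein forms capsid-like shells and promotes removal of AMPA receptors from synapses, had the steadiest level of all members. It stood at 25.5, 34.3, 38.0, 34.5 and 26.7 CPM in left replicates 1 to 5, against 27.8, 37.1, 30.2, 27.8 and 28.6 CPM in right replicates 1 to 5. The highest library was 1.49 times the lowest, and the sides overlapped. The means were 31.8 ± 5.42 CPM in left libraries and 30.3 ± 3.92 CPM in right libraries (SD, n = 5 libraries each), and the log2 fold change of 0.05 had the narrowest interval of the set (SE 0.14, 95% interval -0.25 to 0.35). Dusp1 (chromosome 17, 26505590 to 26562128, minus strand) stood at 5.41, 39.2, 46.5, 55.4 and 6.08 CPM in left replicates 1 to 5, against 6.96, 23.3, 48.5, 47.0 and 6.64 CPM in right replicates 1 to 5. Its lowest libraries were replicates 1 and 5 of both sides and the sides overlapped (log2 fold change 0.16, 95% interval -1.60 to 1.92). It shares 11 exonic bases with Ergic1 on the other strand.

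**Figure D2:**
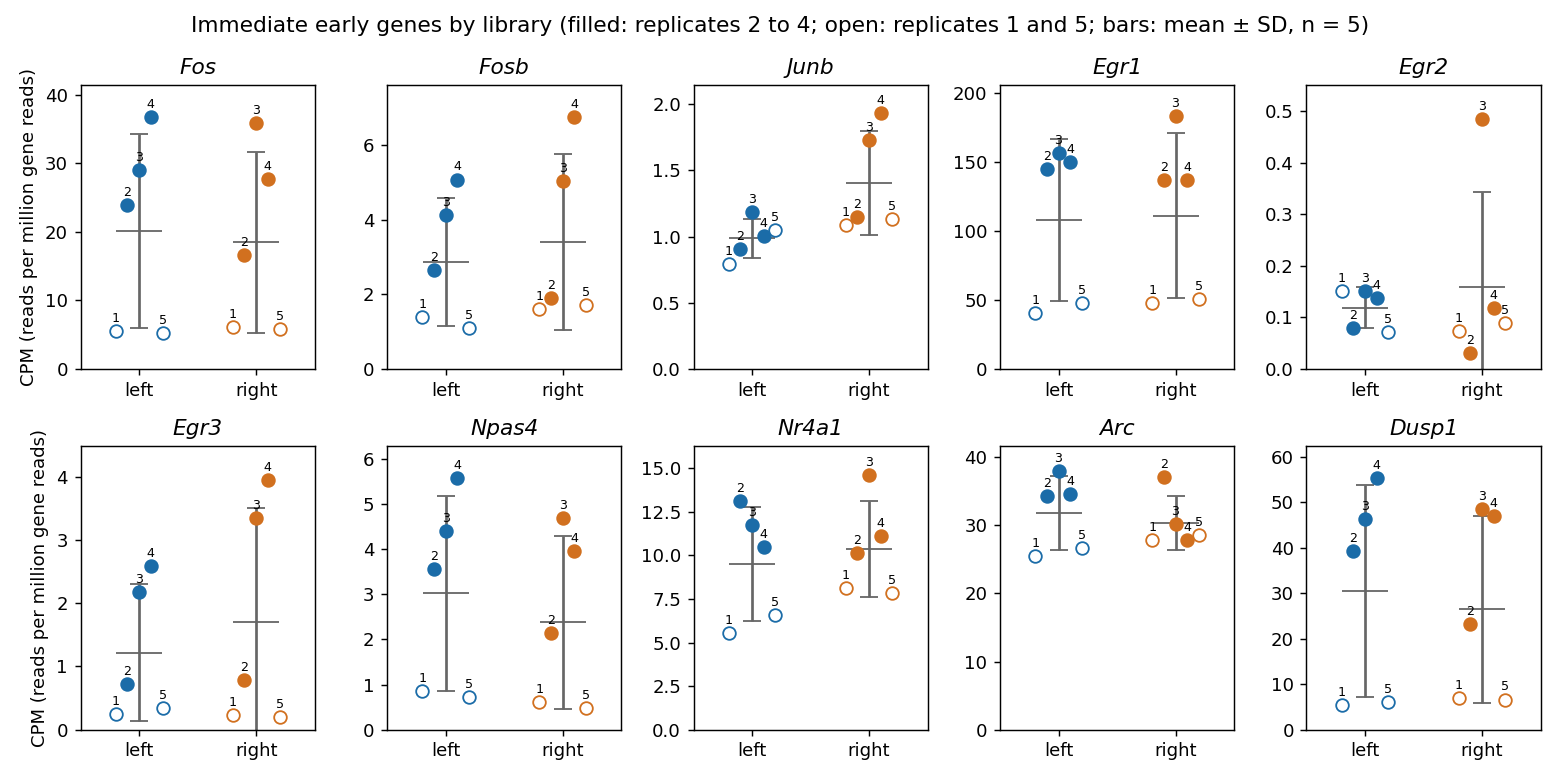
CPM of each gene in the 5 left and 5 right libraries, numbered by replicate, with filled points for replicates 2 to 4, open points for replicates 1 and 5, and mean ± SD in grey (n = 5 libraries a side; lower bars of Egr2 and Egr3 on the right end at the axis). Left and right points overlap in each panel. Open points lie below all filled points of both sides for Fos, Fosb, Egr1, Egr3, Npas4, Nr4a1 and Dusp1.

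**Figure D3:**
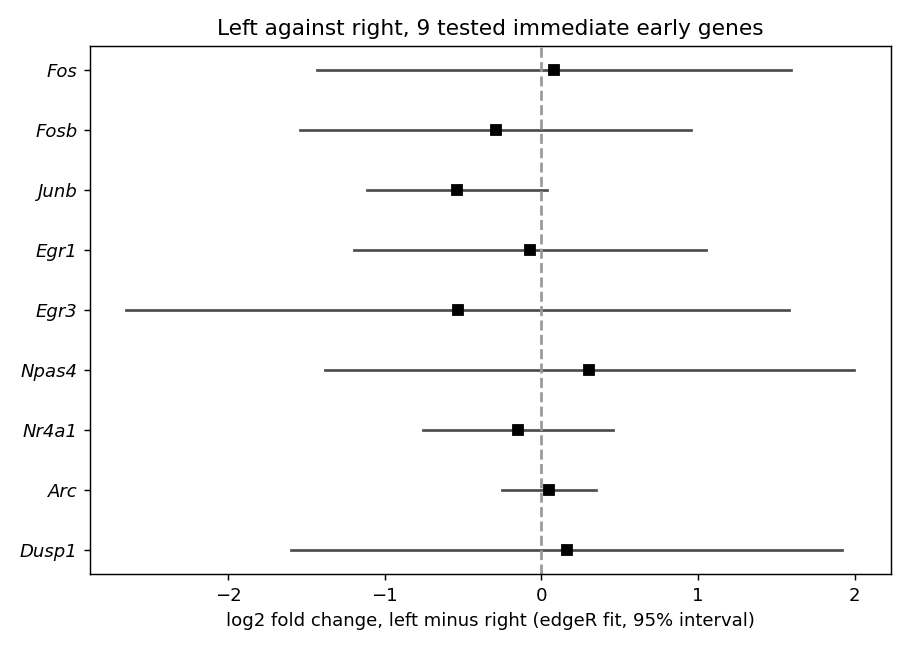
Log2 fold change, left minus right, from edgeR for the 9 tested genes (squares) with 95% intervals (lines). Each interval includes 0; that of Arc is the narrowest (-0.25 to 0.35) and that of Egr3 the widest (-2.65 to 1.58).

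How wide these intervals are depends on how the split between the libraries is handled. With side as the only term, a change of 1 on the log2 scale lay outside the interval for Arc and Nr4a1 in both directions, and inside it in at least 1 direction for the other 7 tested members, with standard errors of 0.14 to 0.95. The standard errors were 0.077 to 0.33 with the glial level as a covariate and a change of 1 then lay outside the interval for all 9. With only replicates 2 to 4, an alternative added after seeing the data, the log2 fold changes were 0.14 for Fos, -0.24 for Fosb, -0.66 for Junb, -0.04 for Egr1, -0.58 for Egr3, 0.15 for Arc, 0.30 for Npas4, -0.04 for Nr4a1 and 0.22 for Dusp1, and 0 passed the threshold. With the glial covariate 0 members passed either, while Npas4 (log2 fold change 0.41, unadjusted p = 0.0193) and Junb (-0.50, unadjusted p = 0.0377) had an unadjusted p under 0.05 in edgeR. Both had an adjusted p of 0.99999, and 505 of all 16250 genes (3.11%) fell under an unadjusted p of 0.05 in that fit. The sign of the fold change turned for 8 of the 9 tested members, Junb being the exception, when certain single libraries were left out.

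The spread within a side followed the replicate number for 7 of the 10 members. Fos, Fosb, Egr1, Egr3, Npas4, Nr4a1 and Dusp1 were higher in each of the 6 libraries numbered 2 to 4 than in each of the 4 numbered 1 and 5. Of all 16250 tested genes 24.3% showed that order and 22.9% the opposite one, so the libraries differed in both directions across the transcriptome. The sets were known from the glial markers and the members were not tested between them. Egr3 had a median of 2.38 CPM in replicates 2 to 4 and 0.246 CPM in replicates 1 and 5, a ratio of 9.71 and larger than that of 94.9% of tested genes. The median of Dusp1 was 46.7 CPM in replicates 2 to 4 and 6.36 CPM in replicates 1 and 5 (ratio 7.35). For Npas4 it was 4.17 CPM in replicates 2 to 4 and 0.666 CPM in replicates 1 and 5 (ratio 6.26), and for Fos 28.3 CPM in replicates 2 to 4 and 5.72 CPM in replicates 1 and 5 (ratio 4.96). These 4 had the largest ratios among the members. Egr1 had a median of 147 CPM in replicates 2 to 4 and 47.9 CPM in replicates 1 and 5 (ratio 3.08), and Fosb 4.58 CPM in replicates 2 to 4 and 1.5 CPM in replicates 1 and 5 (ratio 3.06). Nr4a1, with 11.4 CPM in replicates 2 to 4 and 7.22 CPM in replicates 1 and 5, had the smallest ratio of the 7, at 1.58.

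Junb overlapped between these sets, and Arc did with CPM but not under another scaling. With TMM-scaled library sizes, an alternative added after seeing the data, Arc stood at 29.4 to 38.0 in replicates 2 to 4 and 24.8 to 29.0 in replicates 1 and 5, so that 8 of the 10 members separated (24.7% of tested genes did so in that direction). In CPM, Arc had medians of 34.4 CPM in replicates 2 to 4 and 27.3 CPM in replicates 1 and 5 (ratio 1.26), and Junb had 1.17 CPM in replicates 2 to 4 and 1.07 CPM in replicates 1 and 5 (ratio 1.09). The proportions of the members to one another therefore changed from library to library. There were 0.446 to 1.19 reads of Fos per read of Arc in replicates 2 to 4 and 0.194 to 0.222 in replicates 1 and 5. For Egr1 the same ratio was 3.69 to 6.07 in replicates 2 to 4 and 1.58 to 1.80 in replicates 1 and 5. These ratios are within a library and do not depend on how it was scaled.

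Within the 6 libraries numbered 2 to 4 the steps were graded. In order of their glial and vascular markers, which summed to 917 CPM in right replicate 2, 1765 in left replicate 2, 2494 in left replicate 3, 3188 in right replicate 4, 3544 in right replicate 3 and 3661 in left replicate 4, Dusp1 stood at 23.3, 39.2, 46.5, 47.0, 48.5 and 55.4 CPM. Fos stood at 16.6, 23.9, 29.0, 27.7, 35.9 and 36.8 CPM in the same libraries, so its level kept that order except for left replicate 3 and right replicate 4. Egr1 was flatter, at 136.8, 144.7, 156.6, 137.2, 183.5 and 150.3 CPM. Arc ran at 37.1, 34.3, 38.0, 27.8, 30.2 and 34.5 CPM and did not follow the glial order. The order was not particular to glial and vascular markers. In the same libraries the 6 thalamic markers summed to 2325, 2508, 2506, 2774, 2733 and 2965 CPM, nearly the same order. The sum of the 4 lateral habenular markers did not follow it, at 485, 556, 486, 459, 503 and 552 CPM. The part of glial RNA, or of RNA from other neurons, in the levels of the members was not tested.

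**Figure D4:**
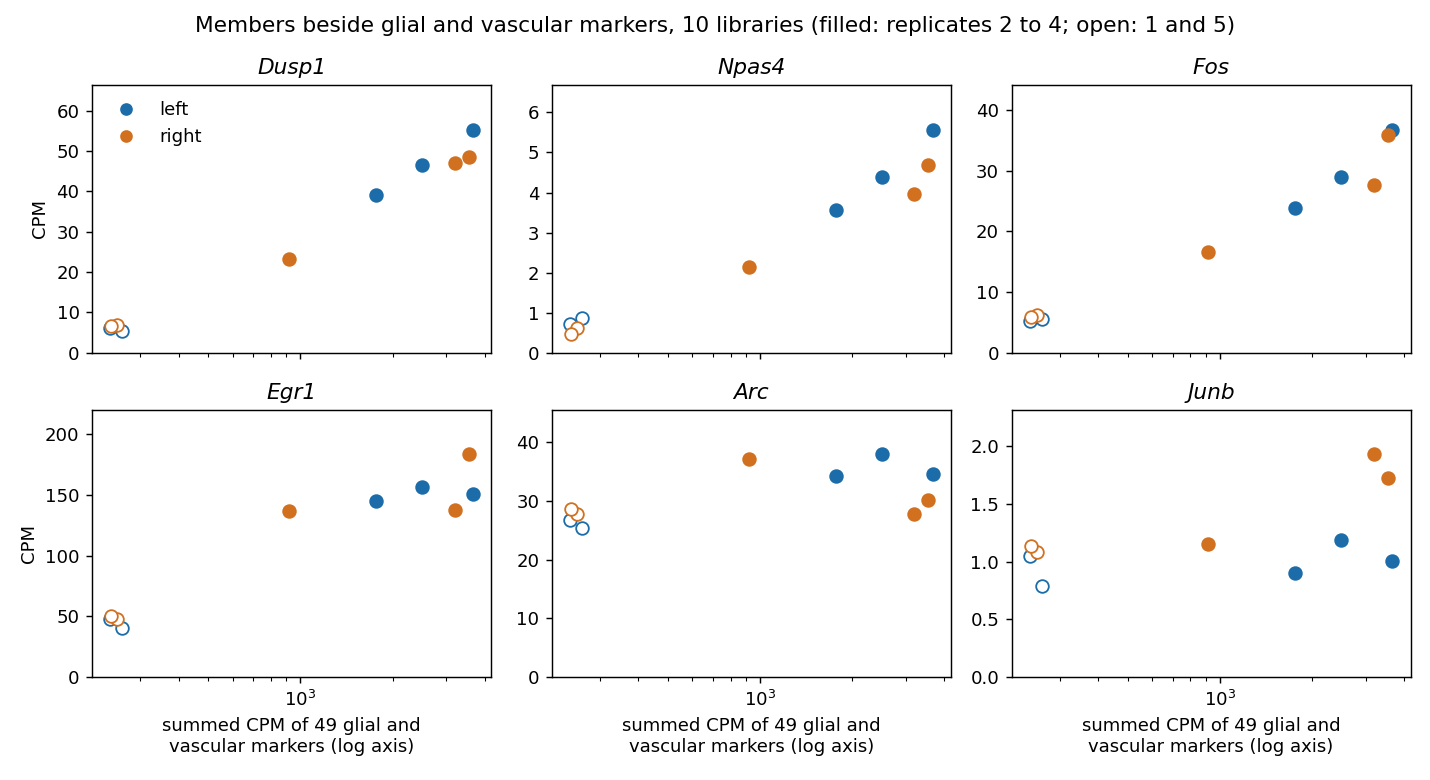
CPM of 6 of the genes against the summed CPM of 49 glial and vascular markers (log axis) in 5 left and 5 right libraries, with filled points for replicates 2 to 4 and open points for replicates 1 and 5. Dusp1 goes up with each step of the glial sum from 917 to 3661 CPM, while Arc stays between 25.5 and 38.0 CPM in all libraries.

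The dimer partners and co-factors of these genes also showed 0 calls between the sides. Of 13 listed partners 10 had enough reads, 2 of them fitted higher in left libraries and 8 in right libraries, with a median log2 fold change of -0.07, where the median over all tested genes was -0.01. Of all 16250 tested genes 7520 were fitted higher in left libraries and 8730 in right libraries. The 2 most abundant were Arnt2 and Arnt, the partners of Npas4. Arnt2 stood at 277 ± 23.4 CPM in left libraries and 281 ± 32.2 CPM in right libraries, and Arnt at 32.4 ± 2.59 CPM in left libraries and 34.9 ± 2.87 CPM in right libraries (SD, n = 5 libraries each). Chosen after their values were seen, Jun stood at 13.0 to 28.2 CPM in replicates 2 to 4 and 4.60 to 6.26 CPM in replicates 1 and 5, and Jund, its relative that is present without stimulation, at 17.2 to 30.2 CPM in replicates 2 to 4 and 21.9 to 29.3 CPM in replicates 1 and 5. Of the 10 tested partners 3 were lower in all libraries numbered 1 and 5 and 0 were higher in all of them, beside 24.3% and 22.9% of all tested genes.

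Of 31 other rapid response genes 30 were tested and 0 were called, of which 10 were fitted higher in left libraries and 20 in right libraries, with a median log2 fold change of -0.03. The most abundant was Nr4a2, a relative of Nr4a1, at 1184 ± 209 CPM in left libraries and 1134 ± 322 CPM in right libraries (SD, n = 5 libraries each). Plk2, a kinase, followed at 102 ± 14.6 CPM in left libraries and 106 ± 15.2 CPM in right libraries. Between the sets of libraries 9 of the 30 were lower and 7 higher in all libraries numbered 1 and 5, shares near the 24.3% and 22.9% of all tested genes. Nr4a2 was among the higher, with 798 to 1203 CPM in replicates 2 to 4 and 1382 to 1455 CPM in replicates 1 and 5, so Nr4a1 and Nr4a2 stood in opposite order between the sets. Chosen after their values were seen, Btg2, an antiproliferative gene, stood at 11.9 to 22.8 CPM in replicates 2 to 4 and 31.9 to 33.7 CPM in replicates 1 and 5, and Egr4, the fourth Egr gene, at 0.635 to 1.57 CPM in replicates 2 to 4 and 0.194 to 0.265 CPM in replicates 1 and 5. The median ratio between the sets was 1.09 for the 30 genes, 3.08 for the 9 tested members and 1.0 for all tested genes.

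**Figure D5:**
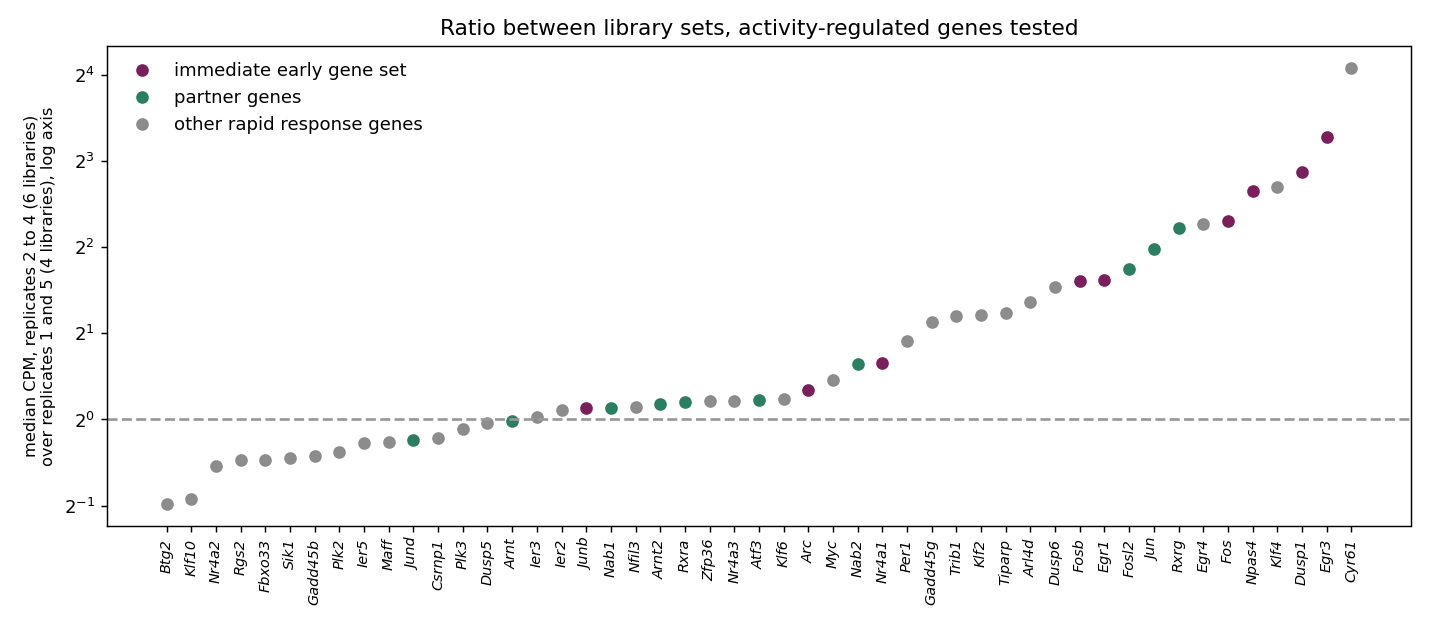
Median CPM in replicates 2 to 4 (6 libraries) over replicates 1 and 5 (4 libraries), on a log axis, for tested members, partner genes and other rapid response genes, ordered by the ratio. Egr3 (9.71), Dusp1 (7.35), Npas4 (6.26) and Fos (4.96) are near the top, Arc (1.26) and Junb (1.09) near 1, and Btg2 (0.506) is lowest. Of the other rapid response genes, named after their values were seen, Cyr61 (16.9) is highest of all and Klf4 (6.50) lies between Dusp1 and Npas4. Cyr61 had only 0 to 0.0596 CPM in replicates 1 and 5.

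Heat shock genes, which respond to stress such as tissue handling, gave 0 calls. The 10 listed heat shock genes were all tested, of which 1 was fitted higher in left libraries and 9 in right libraries, with a median log2 fold change of -0.08. Leaving out single libraries moved this median between -0.16 and 0.043. The 2 most abundant were the chaperones Hsph1, at 541 ± 187 CPM in left libraries and 550 ± 197 CPM in right libraries, and Hsp90aa1, at 375 ± 144 CPM in left libraries and 360 ± 132 CPM in right libraries (SD, n = 5 libraries each). Hsph1 stood at 432 to 798 CPM in replicates 2 to 4 and 372 to 413 CPM in replicates 1 and 5, and Hsp90aa1 at 307 to 571 CPM in replicates 2 to 4 and 229 to 258 CPM in replicates 1 and 5, so both separated the sets. Of the 10 genes 3 were lower and 1 higher in all libraries numbered 1 and 5, beside 24.3% and 22.9% of all tested genes. The sum over the list was 1305 to 2026 CPM in replicates 2 to 4 and 1351 to 1457 CPM in replicates 1 and 5, which overlapped.

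The genes whose log2(CPM + 1) ran most like each member were sought among 8959 others with a mean of at least 10 CPM, by Pearson's r over the 10 libraries. The values are descriptive, since the points share the split between the sets, and r over the 6 libraries numbered 2 to 4 stands beside them. Cit, Cacna2d1 and Kcnc1 were closest to Fos, with r of 0.9997 for Cit (0.997 in the 6 libraries). AI593442, Adcy1 and Creg2 were closest to Npas4 (0.997 and 0.988 for AI593442), Kcnq1ot1, Grid2ip and Camk2a to Dusp1 (0.998 and 0.981 for Kcnq1ot1), and Src, Dusp7 and 4930506M07Rik to Egr1 (0.997 and 0.899 for Src). Lpin2, Hmgcs1 and Ubr1 were closest to Egr3, Ogt, Fam65b and Gria2 to Fosb, and Slc27a1, Arhgap27 and Adgrb2 to Nr4a1. The first of each had r of 0.988, 0.987 and 0.981 (0.985, 0.976 and 0.907 in the 6 libraries). Arc was matched less closely, by Atn1 (0.966, and 0.959 in the 6 libraries), Ppp1r10 and Bcl9, and Junb by Tubb2a (0.910, and 0.947 in the 6 libraries) and Hey1. For Egr2, with few reads, Nuak1, Hipk4 and Trappc9 came first (0.935 and 0.949 for Nuak1).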

How the data were processed

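RNA bound to EGFP-tagged ribosomes was sequenced in 10 libraries, 5 per side, grouped by the side and replicate number in the sample titles. The authors deposited unnormalised read counts by gene symbol, with a table for each library. STAR 2.0.0e, HTSeq and mm10 are named in the submitters' processing notes, while annotation, strand setting and filters are not given in the sources read. Of 32537 rows 6 name no gene (summary lines and a row named unknown) and were left out; reads outside genes were 13.6% to 18.9% and ambiguous reads 2.25% to 2.81% of uniquely aligned reads. Gene reads were 42488448 to 67942836 per library, so counting noise matters mainly for Egr2, Junb, Egr3 and Npas4.

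CPM and RPKM use total gene counts. The test was edgeR 4.0.16 in R 4.3.3 (TMM, filterByExpr with a minimum count of 10, robust quasi-likelihood fit, side as the only term), with standard errors and 95% intervals taken from the F statistic. TMM factors were 0.947 to 1.03. The fit was tested on 3 simulated sets for the left and right comparison, run on about the same genes (15924 in the first): it recovered 36.7% of 2-fold and 78.7% of 4-fold changes with 11 false calls. Counts were drawn gene by gene and did not hold the split that many genes share between the sets of libraries. These rates may therefore not apply to the real libraries or to single members. Alternatives were median-of-ratios factors, no TMM factor, no low count filter, DESeq2 1.42.0, a glial covariate (mean log2 CPM of 47 tested glial and vascular markers, prior count 2), a replicate block, replicates 1 and 5 summed, and each library left out. Replicates 2 to 4 alone and TMM-scaled CPM for the sets of libraries were added after seeing the data. Members and lists were chosen with earlier results of these data known. Genes named were the 10 members, the 2 most abundant tested genes of each list and the 3 closest genes per member; others are marked, and 2 genes that this rule names are not reported here. Coordinates are GENCODE M21 (GRCm38), which matched 23161 of the 32531 gene symbols, and promoters are RefSeq (GRCm38.p6). Plots used matplotlib 3.10.9 (Python 3.11.15).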

Additional observations from a re-analysis of the deposited data

Results flagged for a closer look

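Within the 5 right libraries, Arc in replicate 2 stood at 37.1 CPM, and its gap to the next library was 0.741 of the range of that side, past the 95% critical value of 0.71 for 5 samples. Egr2 in right replicate 3 stood at 0.485 CPM, with a gap of 0.808 of the range, on 32 reads. The 10 genes gave 20 such groups, of which chance passes about 1 in 20. No further value of the members was flagged.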

How the results depend on the processing

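Under all 18 alternatives the count of members called between the sides stayed at 0, as did that of all genes and of the other activity and heat shock lists. The 8 alternatives that left out no single library changed the sign of 0 of 72 member fits; leaving out each of 10 libraries changed 18 of 90. The log2 fold change then ranged from -0.24 to 0.49 for Fos, -0.59 to 0.15 for Fosb, -0.62 to -0.37 for Junb, -0.27 to 0.19 for Egr1, -1.0 to 0.085 for Egr3, -0.016 to 0.13 for Arc, -0.027 to 0.73 for Npas4, -0.29 to 0.017 for Nr4a1 and -0.16 to 0.51 for Dusp1. With the replicate block 0 members were called (0 of all genes, with 297, or 1.83%, at an unadjusted p under 0.05), and Npas4 had a log2 fold change of 0.41 (unadjusted p = 0.04999 in edgeR, adjusted p = 0.9999). The standard errors of the members were then 0.077 to 0.26, and a change of 1 on the log2 scale lay outside the interval for 8 of the 9, Junb being the exception (-1.02 to 0.0054). The replicate numbers were not taken as pairs: same-numbered libraries correlated at 0.096 to 0.873 in their deviations from the side mean, but replicate 2 was under 0.1, and left replicate 2 correlated best with right replicate 3 (0.513). In the labels the left and right library of each number from 2 to 5 share a lane number and those of number 1 do not; the labels do not say that a number marks a shared batch. With TMM-scaled library sizes 8 members, Arc added, separated the sets of libraries in place of 7. Lengths of the longest transcript gave Fosb 0.601 RPKM in place of 0.364, Dusp1 13.5 in place of 9.44, which puts it above Arc, and Nr4a1 4.04 in place of 2.94. Depth limits Egr2, which had 2 to 32 reads per library.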

Other observations

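Genes upstream of the immediate early response and later activity genes were detected on both sides, and the lack of calls between the sides does not show equal levels. Of 31 upstream regulators all 31 were tested, of which 12 were fitted higher in left libraries and 19 in right libraries, and 0 were called. Camk2b, a subunit of a calcium-dependent kinase, stood at 582 ± 100 CPM in left libraries and 575 ± 91.7 CPM in right libraries (SD, n = 5 libraries each). Between the sets of libraries 11 of the 31 were lower and 8 higher in all those numbered 1 and 5, beside 24.3% and 22.9% of all tested genes. Chosen after their values were seen, Creb1, which encodes CREB, stood at 70.7 to 93.4 CPM in replicates 2 to 4 and 105 to 124 CPM in replicates 1 and 5, opposite to Fos. Srf, which encodes the serum response factor, overlapped, at 22.5 to 30.6 CPM in replicates 2 to 4 and 21.8 to 26.4 CPM in replicates 1 and 5. Camk2a, a kinase subunit typical of forebrain excitatory neurons, stood at 207 to 801 CPM in replicates 2 to 4 and 28.7 to 36.4 CPM in replicates 1 and 5.

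Of 12 later activity genes 11 were tested, of which 5 were fitted higher in left libraries and 6 in right libraries, and 0 were called. Between the sets of libraries 7 of the 11 were lower and 3 higher in all those numbered 1 and 5, beside 24.3% and 22.9% of all tested genes. Their median ratio of replicates 2 to 4 over replicates 1 and 5 was 1.37. Nrn1, a surface protein of neurites, stood at 956 ± 409 CPM in left libraries and 942 ± 373 CPM in right libraries, and Scg2, a secretory granule protein, at 194 ± 47.7 CPM in left libraries and 190 ± 40.9 CPM in right libraries (SD, n = 5 libraries each). Nrn1 ran from 507 to 963 CPM in replicates 2 to 4 and from 1321 to 1373 CPM in replicates 1 and 5, whereas Scg2 ran from 170 to 262 CPM in replicates 2 to 4 and from 145 to 160 CPM in replicates 1 and 5. Bdnf, a neurotrophin chosen after its values were seen, stood at 3.62 to 10.6 CPM in replicates 2 to 4 and 2.33 to 3.22 CPM in replicates 1 and 5.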
